A study of Mus musculus with 38 samples.

Results

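The proteasome members described here are the genes whose array symbol begins with Psma, Psmb, Psmc, Psmd or Psme and ends in a number, 43 genes with a probe on the array, of which 39 were tested among 15201 genes in all. A gene was tested where its probe exceeded a background threshold (6.62 on the log2 scale used below) on at least 2 of 38 arrays, and where several probes qualified the one with the highest mean stood for the gene. By class these were 4 of 7 alpha subunits of the core, all 7 beta subunits, all 3 immune subunits, both tissue-restricted core subunits, all 9 subunits of the base, 7 of 8 of the lid, all 3 assembly chaperones and all 4 activators. Every tested member but Psmb11 was above the threshold on all 38 arrays. Psmb11 was just inside the rule, above it on 17 arrays with a highest linear intensity of 118.1 before background correction. Just outside were Psma3 with a highest intensity of 98.3, Psmd3 with 97.7, Psma6 with 86.1 and Psma1 with 78.1.

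Illumina bead arrays with 1 colour measured whole-testis RNA of mice in 20 groups, each array holding a pool from 2 animals. LuRKO mice, which lack the receptor for luteinizing hormone, the pituitary signal for testosterone synthesis, and their wild-type littermates were sampled at days 3, 8, 13, 19 and 27, with birth as day 1. Further LuRKO mice received 1 injection of testosterone propionate at day 19 and were sampled 2, 4, 8, 12, 24 or 48 h after 2.5 mg, or at 24 h after 250 ng, 2.5 µg, 25 µg or the vehicle. All injected animals, those given vehicle included, were LuRKO, and there was no injected wild-type group. Of the groups 18 had 2 arrays, while LuRKO day 27 and the 24 h group of 2.5 mg had 1 each and so no replicate check of their own.

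The proteasome is the protease that degrades proteins tagged with ubiquitin. Its barrel-shaped core is built from rings of alpha subunits, which gate entry, and rings of beta subunits, of which Psmb5, Psmb6 and Psmb7 cut the substrate. In immune cells and under interferon, Psmb8, Psmb9 and Psmb10 take the places of these catalytic subunits. A regulatory particle caps the core, with a base of ATPases (Psmc1 to Psmc6) and scaffolds that unfold substrates and a lid that removes ubiquitin through Psmd14. Other caps are the activators encoded by Psme1 and Psme2, which form a joint ring, by Psme3 in the nucleus, and by Psme4. In mouse germ cells Psma8 replaces the alpha subunit Psma7, and Psme4 has been linked to the breakdown of acetylated histones in spermatids.

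Promoters are shown for 6 members whose transcripts took different courses below. Psma7, Psme1 and Psme3 were lower and Psme4 higher in the oldest wild-type testes, Psmc6 had the largest difference between genotypes at day 27, and Psmb8 is an immune subunit. Each is the 250 bases before the RefSeq start, build GRCm38.p6, read 5′ to 3′ on the strand of the gene, and capitals mark a motif match.
Psma7: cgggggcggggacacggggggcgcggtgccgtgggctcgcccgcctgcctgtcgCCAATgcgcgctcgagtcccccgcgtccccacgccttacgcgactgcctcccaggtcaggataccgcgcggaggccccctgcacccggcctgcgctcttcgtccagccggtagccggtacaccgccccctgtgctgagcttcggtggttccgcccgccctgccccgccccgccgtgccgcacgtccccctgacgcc
Psme1: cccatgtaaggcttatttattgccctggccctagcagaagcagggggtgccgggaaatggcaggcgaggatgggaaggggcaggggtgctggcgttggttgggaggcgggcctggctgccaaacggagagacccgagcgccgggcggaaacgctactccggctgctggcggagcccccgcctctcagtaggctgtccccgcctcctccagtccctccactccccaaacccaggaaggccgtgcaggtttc
Psme3: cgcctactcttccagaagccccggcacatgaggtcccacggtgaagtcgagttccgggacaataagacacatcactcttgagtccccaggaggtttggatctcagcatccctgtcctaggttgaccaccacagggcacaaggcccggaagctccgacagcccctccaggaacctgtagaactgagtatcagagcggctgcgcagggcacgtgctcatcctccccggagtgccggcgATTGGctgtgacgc
Psme4: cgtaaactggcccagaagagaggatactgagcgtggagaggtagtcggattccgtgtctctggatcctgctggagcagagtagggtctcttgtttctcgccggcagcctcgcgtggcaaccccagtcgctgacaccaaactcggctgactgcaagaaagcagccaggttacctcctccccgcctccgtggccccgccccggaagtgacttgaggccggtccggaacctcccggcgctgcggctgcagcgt
Psmc6: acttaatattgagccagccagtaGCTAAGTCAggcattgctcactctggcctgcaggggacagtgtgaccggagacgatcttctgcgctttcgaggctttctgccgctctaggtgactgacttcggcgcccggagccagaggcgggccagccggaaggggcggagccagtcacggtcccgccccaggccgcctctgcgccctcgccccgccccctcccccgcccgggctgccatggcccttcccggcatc
Psmb8: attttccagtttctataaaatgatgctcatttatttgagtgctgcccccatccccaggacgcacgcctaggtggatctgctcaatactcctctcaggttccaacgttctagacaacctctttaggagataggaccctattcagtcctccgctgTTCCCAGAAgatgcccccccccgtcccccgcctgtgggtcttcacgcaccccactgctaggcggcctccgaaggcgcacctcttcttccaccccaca

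These stretches lie at chr2:180042465-180042714 on the minus strand for Psma7, and on the plus strand at chr14:55578244-55578493 for Psme1, chr11:101315963-101316212 for Psme3, chr11:30771525-30771774 for Psme4, chr14:45329574-45329823 for Psmc6 and chr17:34197945-34198194 for Psmb8. The RefSeq table held promoters for 33 of the 39 tested members, 35 promoters in all, and had no entry for Psma8, Psmb1, Psmb2, Psmb7, Psmc3 or Psmd7. On both strands 4 motifs were searched, and no matches overlapped in the 6 stretches shown. CCAAT was present in 33.8% of all 32851 promoters and in 11 of the 35, including Psma7, 196 bases before the start, and Psme3, where it was read on the other strand 14 bases before the start. TGACNNNGC, the core of the antioxidant response element, was in 10.2% of all promoters and in 5 of the 35, those of Psmb5, Psmb6, Psmc6, Psmd9 and Psmd12. The match in Psmc6 was on the other strand, 227 bases before the start. TTCNNNGAA, the gamma-interferon activation site, was in 7.02% of all promoters and among members only in Psmb8, 97 bases before the start. TGACGTCA, the cAMP response element, added after the data were seen, was in 1.55% of all promoters and in 0 of the 35. None of the 4 motifs matched in the stretches of Psme1 and Psme4.

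Values are log2 of background-corrected intensities that the authors had normalized by quantiles, so levels are compared between arrays for 1 probe and never between genes. Each difference has its standard error (SE) beside it, and a call is an adjusted p under 0.05 in limma, fitted to all 38 arrays and adjusted by Benjamini and Hochberg over all 15201 genes. The depth of such arrays is limited by their number, and between 24078 and 24114 of 45281 probes were above the threshold on each. In whole testes, fewer cells of a type and less RNA per cell cannot be told apart. The genes of the luteinizing hormone and androgen receptors were not analysed here. The summed intensity of 9 meiotic spermatocyte markers was 4039 to 5744 in wild-type testes at day 3. At day 19 it was 105215 to 105569, and at day 27 it was 96668 to 98032. It set day 3 apart from these older ages but did not put them in order. Of the 38 arrays 3 stood apart from their partners in a marker: wild-type day 3 replicate A had Ldhc at 10.61 against 7.70, LuRKO day 13 replicate B had Rhox5 at 10.61 against 9.06, and vehicle replicate A had Rhox5 at 10.92 against 8.15. Both vehicle arrays are labelled as sampled 24 h after injection. The age label of replicate A adds other hours to day 19 than that of replicate B, so the hours of that array are in doubt. The 2 vehicle arrays also differed in 7 Leydig markers, which summed to 1468 on one and 7695 on the other. These sums were 1179 to 1692 in the other injected groups and 9011 to 11531 in wild-type testes at day 19. The part of this difference in comparisons with vehicle was not tested. Counts that move by over 1.5 times without 1 of the 38 arrays are given with the comparison.

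Across the 20 groups the members did not move as 1 block. Group means of a member spanned from 0.42 to 5.10 on the log2 scale, with a median span of 1.18, against a median standard deviation between replicates of 0.12. Wild-type day 27 was the lowest of the 20 groups for 19 of 39 members, among them Psma2, Psma4, Psma5 and Psma7 of the alpha ring, Psmb1, Psmb2, Psmb3, Psmb4 and Psmb7 of the beta ring, and Psme1, Psme2 and Psme3. The same group was the highest for Psmc2, Psmc3 and Psme4. The single array of 2.5 mg at 24 h was the highest for 9 members, including Psmb8, Psmb9 and Psma8, and LuRKO day 27 was the highest for Psma4, Psmc6, Psmd6 and Psmd14.

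**Figure D1:**
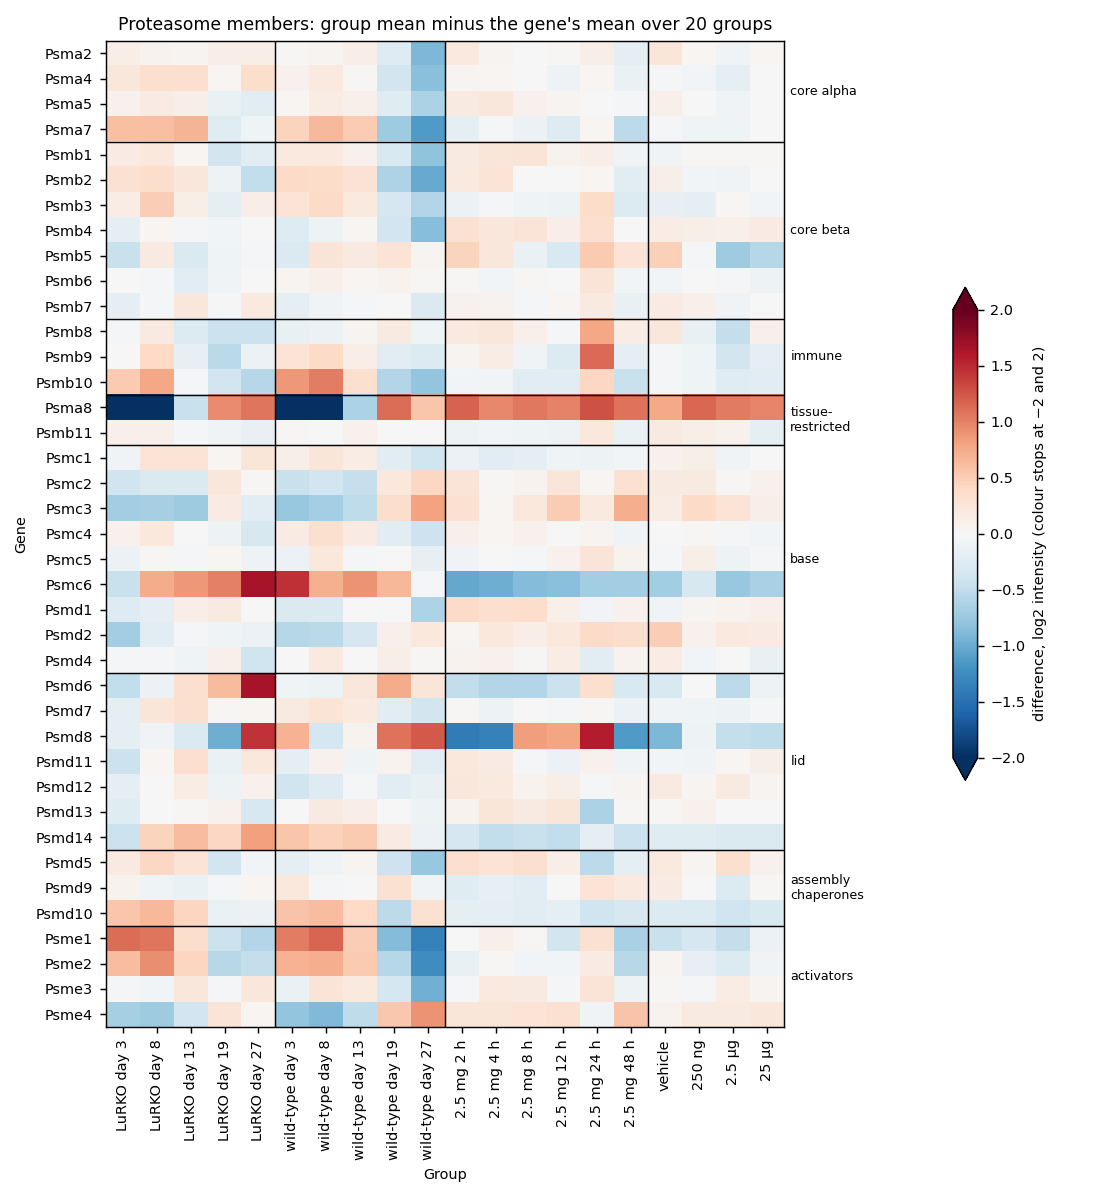
Colour shows each group's mean log2 intensity minus the gene's mean over the 20 groups, for the 39 tested members (rows, by class) in LuRKO ages, wild-type ages, times after 2.5 mg testosterone propionate and doses at 24 h (columns). The wild-type day 27 column is the lowest of its row for 19 members, Psma8 is low before day 13 in both genotypes, and Psmc6 is low in all injected groups.

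The ages of the wild-type testis show how the complex changed as the first wave of germ cells matured. From day 3 to day 27, transcripts of most alpha and beta subunits of the core and of the ring-forming activators fell while Psma8, Psme4 and some ATPases rose. Of the 39 members 20 were lower and 5 higher at day 27 than at day 3 (2 arrays each), where 73% of all genes were called and 44.3% were called lower. All 4 alpha subunits tested fell, with a median difference of -0.93, and 4 of 7 beta subunits fell, with a median of -0.61. The catalytic subunits Psmb5, Psmb6 and Psmb7 were not called. The median over all members was -0.33, beside -0.18 over all genes. In every called case the arrays of one age lay wholly to one side of those of the other. With 2 arrays each this follows largely from the call and is no further support.

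Psma7, the widely expressed alpha subunit, was at 12.49 and 12.39 at day 3, 12.55 and 12.72 at day 8, 12.44 and 12.55 at day 13, 11.36 and 11.18 at day 19, and 10.86 and 10.84 at day 27 in wild-type testes. It was at 12.39 or above on every array until day 13 and lower on every later one. Its day 27 level was 3.01-fold below that of day 3 (log2 -1.59, SE 0.12, limma adjusted p = 6.0e-13), and a second probe of the gene gave -1.64. Psma8, its germ-cell counterpart, was at 8.96 and 8.87 at day 3, 9.50 and 9.46 at day 8, 11.69 and 11.69 at day 13, 13.45 and 13.42 at day 19, and 12.93 and 12.85 at day 27. The rise was 15.7-fold over the whole course (log2 3.98, SE 0.10, limma adjusted p = 1.2e-23), 3.88 on its second probe. It was called at each step to day 19, by 0.57, 2.21 and 1.75, and the step from day 19 to day 27 was -0.55. The summed meiotic markers were at 38436 to 38588 at day 13, 105215 to 105569 at day 19 and 96668 to 98032 at day 27, and their part in these changes was not tested.

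Among the activators, Psme1, a subunit of the ring formed with Psme2, was at 12.26 and 12.37 at day 3, 12.47 and 12.45 at day 8, 11.84 and 11.73 at day 13, 10.28 and 10.57 at day 19, and 9.97 and 9.92 at day 27. It was 5.18-fold lower at day 27 than at day 3 (log2 -2.37, SE 0.13, limma adjusted p = 1.8e-16), the largest fall of any member in this comparison, and -2.05 on its second probe. Its partner Psme2 was at 8.17 and 8.32 at day 27, against 10.35 and 10.01 at day 3 (log2 -1.94, SE 0.15, limma adjusted p = 1.9e-12). Psme3, the nuclear activator, was at 10.97 and 10.53, against 11.36 and 11.81 (log2 -0.83, SE 0.16, limma adjusted p = 2.6e-05). Psme4 went the other way, with 13.69 and 13.85 at day 27 against 12.20 and 11.96 at day 3, a 3.22-fold rise (log2 1.69, SE 0.13, limma adjusted p = 1.7e-12), and 2.07 on its second probe. Thus 3 of the 4 activators fell and 1 rose.

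The base of the regulatory particle was divided, with 3 of its 9 subunits higher and 4 lower at day 27. Psmc3, an ATPase of the base, was at 13.49 and 13.55, against 12.03 and 11.88 at day 3 (log2 1.57, SE 0.13, limma adjusted p = 5.4e-12). The ATPase Psmc2 rose by 0.87 and the scaffold Psmd2 by 0.78, while the ATPases Psmc6, Psmc4 and Psmc1 had differences of -1.51, -0.58 and -0.52 and the scaffold Psmd1 one of -0.33. In the lid only Psmd14 (-0.67) and Psmd7 (-0.54) were called of 7. Of the immune subunits, Psmb10 was at 8.44 and 9.04 at day 27 against 10.40 and 10.39 at day 3 (log2 -1.66, SE 0.16, limma adjusted p = 2.1e-10), Psmb9 differed by -0.56, and Psmb8 by 0.07, which did not pass. Over the same ages the 11 macrophage and leukocyte markers summed to 10211 to 10551 at day 27 and 4748 to 5354 at day 3, and their part was not tested.

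Most of these changes took place between day 13 and day 27. From day 3 to day 8 only Psma8 rose and Psmc6 fell (-0.76), with 17.7% of all genes called. Without wild-type day 3 replicate A or day 8 replicate B 1 member was called, and without day 3 replicate B 5. From day 8 to day 13 Psma8 and Psme4 (0.38) rose and Psmb10 (-0.69) and Psme1 (-0.68) fell, with 28.1% of all genes called, and 2 members were called without day 8 replicate A. Between day 13 and day 19, 17 members fell and 5 rose, with 56.6% of all genes called and 35.3% called lower. Both Psma7 (-1.23) and Psme1 (-1.36) took most of their fall in that step, and Psme4 (1.05) and Psmc3 (0.85) most of their rise. Between day 19 and day 27, 14 fell and 3 rose, with 51% of all genes called and 35.9% called lower. Here all 4 alpha subunits fell again, with a median of -0.44, Psmd10, an assembly chaperone, rose by 0.83, and Psmc3 and Psme4 rose by 0.46 and 0.35.

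**Figure D2:**
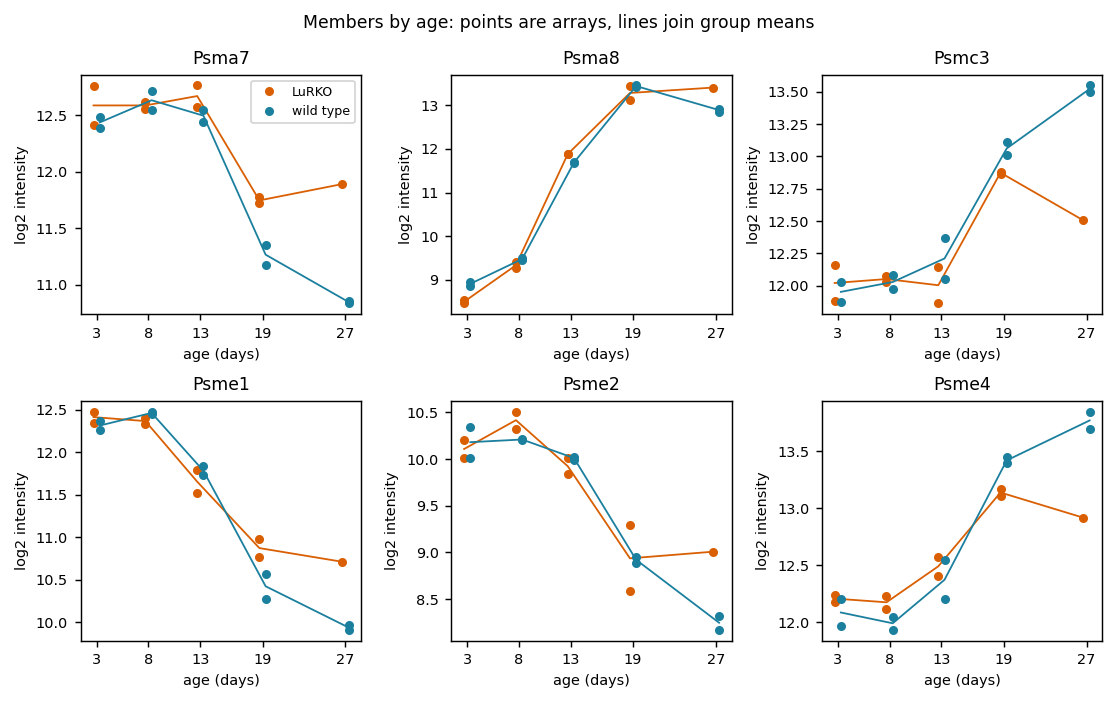
Log2 intensity on each array (points) and group means (lines) against age in days for Psma7, Psma8, Psmc3, Psme1, Psme2 and Psme4, with LuRKO and wild-type testes in separate colours; LuRKO day 27 is 1 array. Psma7, Psme1 and Psme2 are lowest and Psmc3 and Psme4 highest at day 27 in wild type, and the LuRKO day 27 array lies between that level and the level of day 3 in all 5.

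The comparison of genotypes asks what loss of the receptor changes at each age. Before day 19 few members differed between genotypes. At day 3, Psmc6, Psmd14 and Psma8 were lower in LuRKO testes and no member was higher, with 8.15% of all genes called, and 5 members had an unadjusted p under 0.05. Psmc6 was at 7.87 and 7.49 in LuRKO testes, against 9.64 and 9.53 in wild type (log2 -1.91, SE 0.19, limma adjusted p = 4.2e-08). Psmd14, the deubiquitinase of the lid, was at 11.40 and 11.33, against 12.42 and 12.27 (log2 -0.98, SE 0.13, limma adjusted p = 4.2e-06), but its second probe gave -0.27 (limma adjusted p = 0.32). For Psmc6 and Psmd14 the LuRKO day 3 arrays also lay below all other arrays of uninjected LuRKO testes, and neither gene was called at day 8. Psma8 was at 8.54 and 8.46, against 8.96 and 8.87 (log2 -0.41, SE 0.10, limma adjusted p = 0.011). At day 8 limma called 0 members, 3 with an unadjusted p under 0.05, and 0.046% of all genes. At day 13 it called 0 members, 6 with an unadjusted p under 0.05, and 1.73% of all genes. Of the genes called at day 13, 36.1% were higher in LuRKO testes, and 54% after scaling the arrays to 1 median.

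At day 19 members were called between genotypes at the same share as all genes, 23.1% each. Of 39 members 7 were higher and 2 lower in LuRKO testes (2 arrays each), the higher ones including 5 of the 11 constitutive core subunits. Of all 15201 genes 1814 were called higher and 1697 lower. The median of the members was 0.03, beside 0.02 over all genes. The higher members were Psmb2 (0.52), Psma7 (0.48), Psme1 (0.45), Psma4 (0.41), Psma2 (0.40), Psmd10 (0.38) and Psmb4 (0.32). Psma7 was at 11.72 and 11.77 in LuRKO testes, against 11.36 and 11.18 in wild type (SE 0.12, limma adjusted p = 0.0048). The lower ones were Psmd8, a lid subunit whose replicates lay far apart (10.49 and 8.93, against 11.76 and 11.78), and Psmb8 (6.95 and 6.88, against 7.32 and 7.73, limma adjusted p = 0.016). The 11 macrophage and leukocyte markers summed to 3752 to 3819 in LuRKO and 5254 to 5925 in wild-type testes at this age, 9 of them lower and 0 higher, and their part in the difference of Psmb8 was not tested. The count rests on single arrays: 3 members were called without wild-type day 19 replicate B, 5 without its replicate A and 5 without LuRKO replicate B.

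At day 27 most members differed between genotypes, and core subunits were higher in LuRKO testes. Of 39 members 21 were higher and 5 lower in LuRKO testes (1 array against 2), with 54.9% of all genes called and 34.1% called higher. The median of the members was 0.43, beside 0.14 over all genes. All 4 alpha subunits tested, 5 of 7 beta subunits, 4 of 7 lid subunits, 3 of 9 base subunits and 3 of 4 activators were higher. The 5 lower members were Psmc3, Psme4, Psmd10, Psmd4 and Psmc2. In each of the 26 the LuRKO array lay outside the range of the wild-type arrays. It also did so in uncalled members such as Psmb5 (-0.09) and Psmc5 (0.06), so this adds no support to the calls.

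Of the core, Psma4 was at 13.99 on the LuRKO array, against 12.74 and 12.87 in wild type (log2 1.19, SE 0.15, limma adjusted p = 8.3e-08). Psma7 was at 11.89, against 10.86 and 10.84 (log2 1.04, SE 0.15, limma adjusted p = 7.4e-07), and 1.03 on its second probe. Psma8 was at 13.40, against 12.93 and 12.85 (log2 0.51), with 0.09 on its second probe. Psma7 and Psma8, which replace each other in the alpha ring, were thus both higher on their main probes on the LuRKO day 27 array. For Psma8 the second probe showed little difference. Psmb4, Psmb3, Psmb1 and Psmb2 were higher by 0.86, 0.71, 0.59 and 0.52. Psmb7 was higher by 0.47, and its other 3 probes gave 0.24, -0.10 and -0.07, none of them called. The catalytic subunits Psmb5 and Psmb6 and the 3 immune subunits did not pass the test, with Psmb8 at 6.92 against 7.26 and 7.28, Psmb9 at 7.41 against 7.10 and 7.39, and Psmb10 at 8.96 against 8.44 and 9.04.

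Of the regulatory particle, Psmc6 was at 9.76 on the LuRKO array, against 8.04 and 8.12 in wild type, 3.20-fold higher (log2 1.68, SE 0.23, limma adjusted p = 4.1e-07). Psmd6, a lid subunit, was at 11.65, against 10.20 and 10.29 (log2 1.41, SE 0.30, limma adjusted p = 1.9e-04), and Psmd14 was higher by 0.94. Psmc3 was at 12.51, against 13.49 and 13.55 (log2 -1.02, SE 0.16, limma adjusted p = 4.1e-06). Among the activators, Psme3 was at 11.94, against 10.97 and 10.53 (log2 1.19, SE 0.19, limma adjusted p = 6.6e-06). Psme4 was at 12.92, against 13.69 and 13.85 (log2 -0.85, SE 0.16, limma adjusted p = 6.2e-05), and -1.16 on its second probe. Psme1 and Psme2 were higher by 0.77 and 0.76, but the second probe of Psme1 gave 0.11 (limma adjusted p = 0.58). The 10 spermatid markers tested were all lower in LuRKO testes and summed to 6011, against 134416 to 135077 in wild type, with Tnp2 not above the threshold on the LuRKO array. The 9 meiotic markers summed to 96502, against 96668 to 98032. The part of either in the members' differences was not tested.

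**Figure D3:**
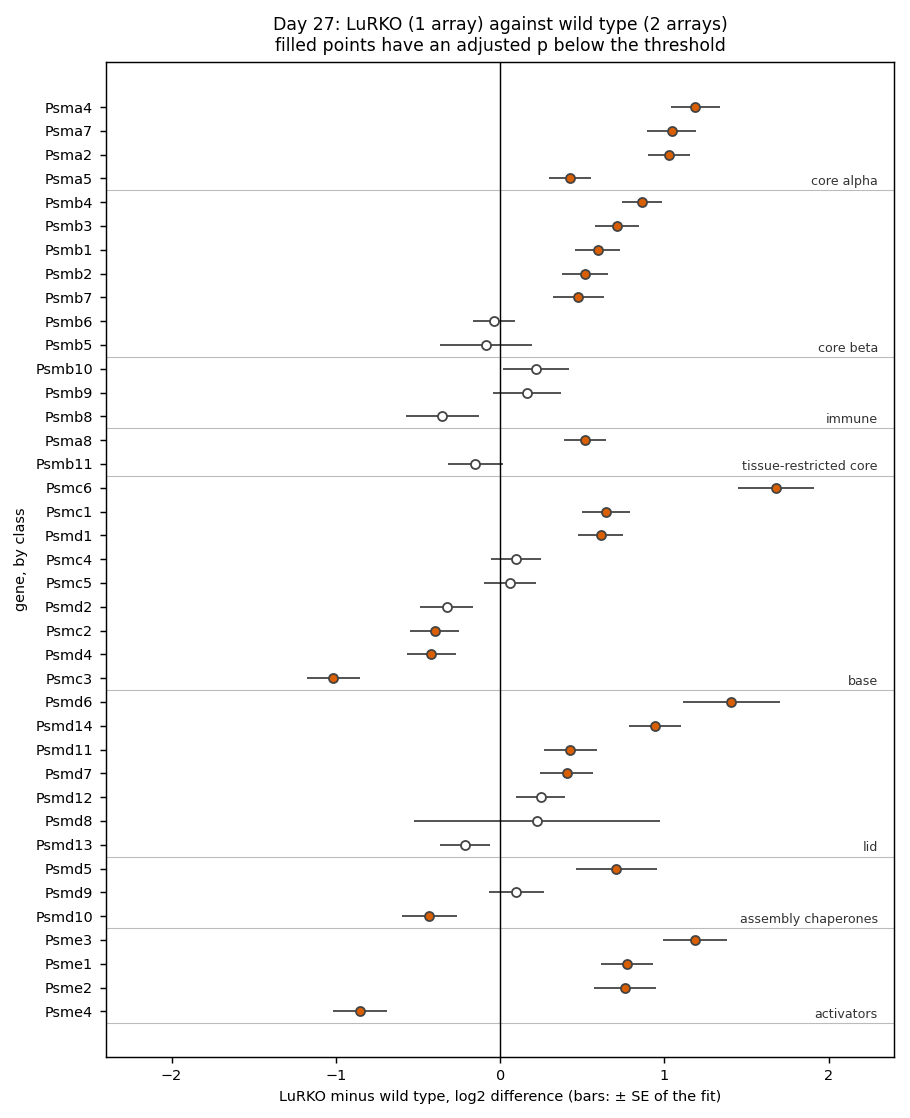
LuRKO minus wild type at day 27 in log2 intensity (points, with bars of 1 SE either side) for the 39 tested members by class; filled points were called. All alpha subunits lie to the right of 0, Psme4 and Psmc3 lie at -0.85 and -1.02, and the immune subunits are not called.

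The change from day 3 to day 27 was then compared between genotypes in the same model, as a difference of differences. It was called for 21 members, 18 with the LuRKO change above the wild-type change and 3 below it, with 47.1% of all genes called and 28.5% called higher. The median over members was 0.57, beside 0.11 over all genes. Within LuRKO testes, 10 members were higher and 10 lower at day 27 (1 array) than at day 3, with 59.3% of all genes called and a median of 0.01, beside -0.07 over all genes. Psma8 rose by 4.90 in LuRKO and 3.98 in wild-type testes, and Psme4 by 0.71 and 1.69. Psma7 differed by -0.70 in LuRKO testes and -1.59 in wild type, and Psme1 by -1.70 and -2.37. Psma4 differed by 0.13 in LuRKO testes, which did not pass, and by -0.92 in wild type. The comparisons at day 27 share the wild-type day 27 arrays and the single LuRKO array, so their results are not independent.

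Steps between younger ages within LuRKO testes were led by Psma8, as in wild type. Between day 8 and day 13, 2 members rose and 5 fell in LuRKO testes, with 30.9% of all genes called. Among them Psma8 rose by 2.55, Psmb10 fell by 0.81 and Psme1 by 0.71. Without LuRKO day 13 replicate B 3 members were called, and without day 8 replicate A 4. Between day 13 and day 19, 4 rose and 9 fell, with 44.1% of all genes called. Psma8 rose by 1.40, Psmc3 by 0.87 and Psme4 by 0.65, and Psme2 fell by 0.99, Psma7 by 0.92 and Psme1 by 0.78. These comparisons were added after the data were seen.

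Some probes divided the arrays into sets that differ in injection and age. Psmc6 lay between 6.93 and 7.81 on all 19 arrays of injected LuRKO testes and at 7.87 and 7.49 in LuRKO testes at day 3. On the 7 arrays of uninjected LuRKO testes from day 8 to day 27 it lay between 8.64 and 9.76, and on the 10 wild-type arrays between 8.04 and 9.64. The first 2 sets did not overlap the last 2. Psmd14 came close to the same division on its main probe, at 11.19 to 11.61 on injected arrays and 11.33 to 11.40 at LuRKO day 3, against 12.04 to 12.62 on other LuRKO arrays and 11.59 to 12.42 in wild type, where 1 wild-type value fell below the highest injected one. Its second probe did not divide, at 11.01 to 11.83 on injected arrays and 11.29 to 11.58 at LuRKO day 3, against 11.65 to 12.40 on other LuRKO arrays and 11.16 to 11.99 in wild type. Of the 66 kept member probes 4 divided fully, that of Psmc6 and secondary probes of Psmd11, Psmc2 and Psma5. This count was made after the values were seen and has no test. That of Psmc2 was at most at 9.84 on injected and LuRKO day 3 arrays, against at least 9.85 on all others. That of Psmd11 was at 9.07 to 9.13 at LuRKO day 3, against 10.15 to 10.58 on other uninjected LuRKO arrays. The main probes of these 3 genes overlapped between the sets. Psmd6 was at 9.05 to 10.33 on injected arrays and 9.86 to 11.65 on LuRKO arrays from day 8, with overlap. Psmd8 scattered within groups, between 9.02 and 12.26 on injected arrays, and its second probe was near background. Psmc6 has 1 probe, so no other probe bears on it. At day 19 injection and the set of arrays cannot be told apart in these samples. The LuRKO day 3 arrays were uninjected, yet lay with the injected ones on the 4 probes that divided fully. In the sample list these 2 sets come first, ahead of all other arrays. Every comparison of LuRKO day 3, or of injected with untreated testes, sets arrays of one side against the other. The part of this division in those comparisons was not tested.

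**Figure D4:**
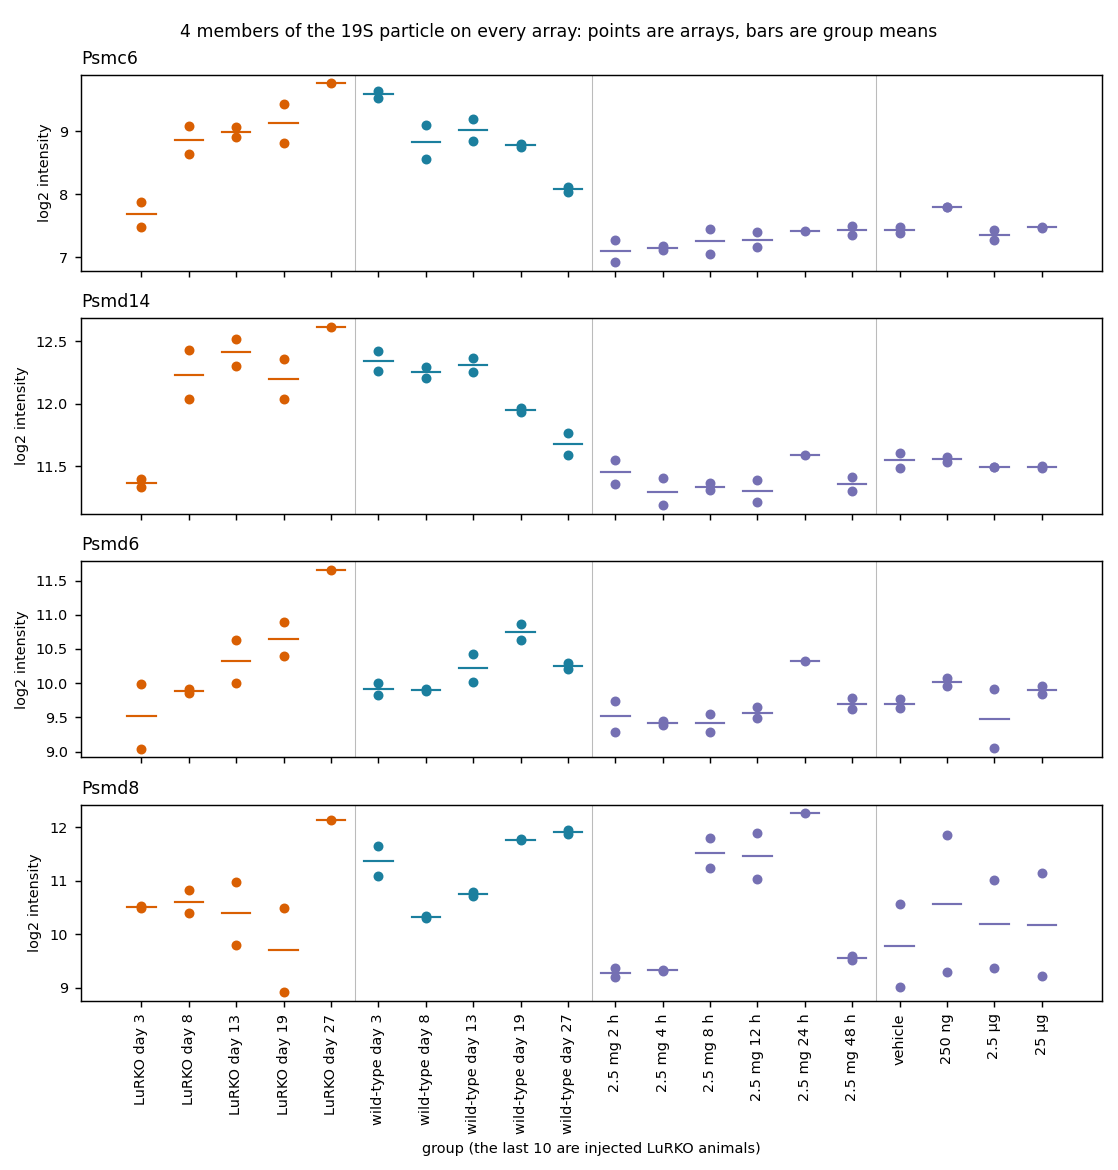
Log2 intensity of Psmc6, Psmd14, Psmd6 and Psmd8 on every array (points, with bars at group means) for LuRKO ages, wild-type ages and the 10 injected LuRKO groups. Psmc6 and Psmd14 are low in LuRKO day 3 and in all injected groups, vehicle included, and the replicates of Psmd8 lie far apart in several groups.

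The times after 2.5 mg testosterone propionate were compared with untreated LuRKO testes of day 19, the same 2 arrays each time, so counts at different times are not independent. With injection at day 19, the testes at 24 h and 48 h were also older than the untreated ones, and treatment and age cannot be told apart there. Limma called 8 members higher and 3 lower at 2 h, with 20.9% of all genes called, 9 and 3 at 4 h (27.3%), 8 and 3 at 8 h (20.8%), 3 and 3 at 12 h (16.5%), 9 and 3 at 24 h (9.8%, 1 array), and 4 and 4 at 48 h (31.8%). At 24 h 51.9% of all called genes were higher, and 40.8% after scaling the arrays to 1 median. At 2, 4, 8 and 12 h the 3 lower members were Psmc6, Psmd6 and Psmd14, with Psmc6 at -2.03, -1.97, -1.87 and -1.85. Vehicle against the same untreated arrays, a comparison added after the data were seen, gave -1.69 for Psmc6, -0.94 for Psmd6 and -0.65 for Psmd14. In all it called 4 members higher and 3 lower, with 14% of all genes called. Without untreated day 19 replicate A 2 members were called, and without vehicle replicate B 4.

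Members called higher at early times were set against vehicle testes as well, and differed in how far they stood above them. Psmb8 was at 7.49 and 7.59 at 2 h, 7.55 and 7.60 at 4 h, 7.33 and 7.58 at 8 h, and 7.25 and 7.38 at 12 h, against 6.95 and 6.88 in untreated and 7.78 and 7.37 in vehicle testes. Psmb9 was at 7.60 and 7.55 at 2 h and 7.47 and 7.88 at 4 h, against 7.01 and 6.96 in untreated and 7.40 and 7.57 in vehicle testes. Both lay above the untreated arrays and overlapped or adjoined the vehicle arrays. Psme1 stood above vehicle by 0.43, 0.54 and 0.47 at 2, 4 and 8 h, and Psmb1 by 0.26, 0.32 and 0.33, none of the values of Psmb1 being called. Psmd8 stood above vehicle by 1.73 at 8 h and 1.68 at 12 h, with limma adjusted p-values of 0.11 and 0.17. With vehicle as the control, chosen after the data were seen and sampled at 24 h only, limma called 2 members at each of 2, 4 and 8 h and 0 at 12 h, where 6 had an unadjusted p under 0.05. Of all genes 1.76%, 9.81%, 3.23% and 1.91% were called in these 4 comparisons. On their main probes the members were Psmd1 (0.45, 0.39 and 0.42), Psma8 at 2 h (0.42), and Psme1 at 4 h (0.54) and 8 h (0.47). Psmd1 has 3 kept probes, and Psma8 and Psme1 have 2 each. Each of these calls rests on the main probe alone. The second Psmd1 probe was at 14.16 and 14.18 at 2 h and 14.23 and 14.21 at 8 h, below vehicle at 14.30 and 14.37. At 4 h it overlapped vehicle, with 14.29 and 14.34, and the third Psmd1 probe overlapped vehicle at all these times. The second Psma8 probe was at 12.61 and 12.66 at 2 h, against 12.62 on both vehicle arrays. The calls of Psme1 do not show that its second probe stood above vehicle. The counts against untreated testes also moved with single arrays. Without untreated replicate A they were 5 at 2 h, 6 at 8 h, 3 at 12 h, 7 at 24 h and 4 at 48 h, and 7 at 8 h without its replicate B. Without 1 treated array they were 6 at 2 h (either array), 6 at 4 h (replicate B), 5 at 8 h (either array) and 5 at 48 h (replicate A).

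At 24 h after 2.5 mg each of the 3 immune subunits stood higher than on any other array of injected testes. On this 1 array Psmb9 was at 8.66, against 7.40 and 7.57 in vehicle testes at 24 h and 7.01 and 6.96 in untreated testes. Its difference from vehicle was 1.18 (SE 0.21, limma adjusted p = 0.0015), and the next highest of the 38 arrays, of wild-type day 8, was at 8.02. Psmb8 was at 8.12, against 7.78 and 7.37 in vehicle testes, which did not pass, and against 6.95 and 6.88 in untreated testes (log2 1.21, SE 0.22, limma adjusted p = 4.7e-04). Psmb10 was at 9.94, against 9.48 and 9.51 in vehicle and 9.24 and 9.06 in untreated testes, and passed only against untreated testes (log2 0.79, SE 0.20, limma adjusted p = 0.011). Psme1, whose ring is induced by interferon, was at 11.61, against 10.78 and 10.93 in vehicle testes (log2 0.75, SE 0.16, limma adjusted p = 0.0064). The 11 macrophage and leukocyte markers summed to 5358 at 24 h, 4889 to 5522 in vehicle and 3752 to 3819 in untreated testes. Against vehicle 1 of them was higher and 0 lower, and their part was not tested.

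In all, 2.5 mg at 24 h against vehicle called 4 members higher and 1 lower, with 4.81% of all genes called and a member median of 0.06, beside 0.00 over all genes. Besides Psmb9 and Psme1 these were Psmb3 (13.11, against 12.58 and 12.59, limma adjusted p = 0.026), Psma8 (13.60, against 13.08 and 13.10, limma adjusted p = 0.020) and the lid subunit Psmd13 (12.24, against 12.94 and 12.86, limma adjusted p = 0.012). The second probe of Psma8 gave -0.54. Without vehicle replicate A 2 members were called. The smaller doses share the same vehicle arrays. Limma called 0 members at 250 ng, 4 with an unadjusted p under 0.05, and 0.0592% of all genes. At 2.5 µg and 25 µg it called Psmb5 lower and no other member, with 0.0526% and 0.454% of all genes called. This catalytic subunit was at 9.0 and 9.68 at 2.5 µg and 9.39 and 9.54 at 25 µg, against 10.50 and 10.53 in vehicle testes, and at 10.57 on the array of 2.5 mg. The differences were -1.18 and -1.05 (SE 0.23 each), with adjusted p-values in limma of 0.037 and 0.034. Neither was called without vehicle replicate A or without vehicle replicate B. The first was also not called without its own replicate A, nor the second without either of its arrays. The untreated day 19 replicates of Psmb5 lay apart, at 9.57 and 10.35.

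At 48 h after 2.5 mg, Psma7, Psme2, Psma2 and Psmb2 were lower and Psmc3, Psme4 and Psma8 higher than in vehicle testes. In all 3 were higher and 4 lower, with 21% of all genes called and a member median of -0.12, beside -0.04 over all genes. Psmc3 was at 13.42 and 13.48, against 12.93 and 12.79 in vehicle testes (log2 0.59, SE 0.13, limma adjusted p = 0.0019). Psma7 was at 11.48 and 11.45, against 11.87 and 12.05 (log2 -0.50, SE 0.12, limma adjusted p = 0.0040), and -0.67 on its second probe. Psme4 was at 13.32 and 13.57, against 13.07 and 12.84 (log2 0.49, SE 0.13, limma adjusted p = 0.0092), and Psme2 was at 9.0 and 8.89, against 9.49 and 9.61 (log2 -0.61, SE 0.15, limma adjusted p = 0.0059). None of these 4 overlapped between groups. Psma2 and Psmb2 differed by -0.44 and -0.34, and Psma8 was higher by 0.33, with -0.15 on its second probe. Vehicle testes are labelled 24 h, with the doubt given above for replicate A, so treatment, time since injection and age cannot be told apart. Without vehicle replicate B 1 member was called, and without the 48 h replicate B 2. The 10 spermatid markers summed to 6039 to 7063 at 48 h and 2733 to 3254 in vehicle testes, with 7 called higher, and their part was not tested.

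**Figure D5:**
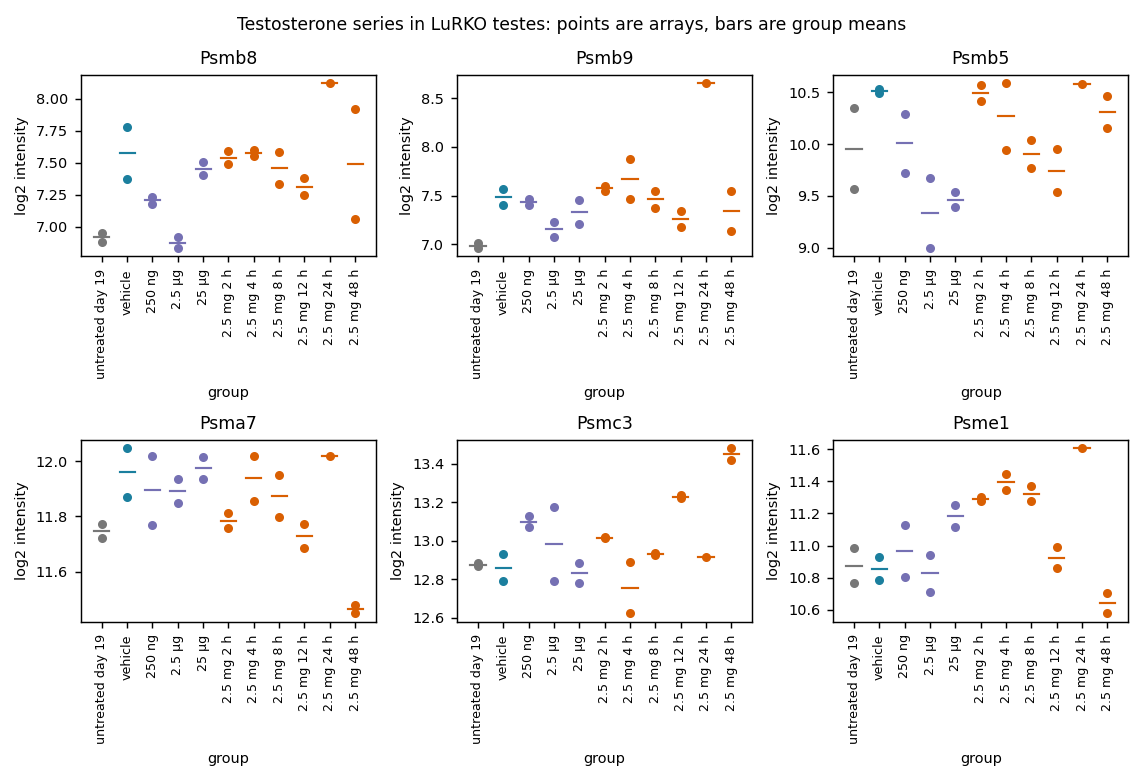
Log2 intensity of Psmb8, Psmb9, Psmb5, Psma7, Psmc3 and Psme1 on each array (points, with bars at group means) in untreated day 19 and injected LuRKO testes; 2.5 mg at 24 h is 1 array. Psmb9 reaches 8.66 on that array, and at 48 h Psma7 is lowest (11.48 and 11.45) and Psmc3 highest (13.42 and 13.48) of these groups.

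Other genes of the pathway were taken from 5 lists. Of 9 genes for transcriptional control of proteasome genes, 6 were higher and 1 lower in LuRKO testes at day 27, with a list median of 0.67, where 54.9% of all genes were called and 34.1% were called higher. Nfe2l1, the factor that raises proteasome genes when the protease is blocked, was higher by 1.04 and its relative Nfe2l2 by 1.10, and their small Maf partners Mafg and Mafk by 1.32 and 1.29. In wild-type testes at day 27 against day 3, 6 of the 9 were lower and 1 higher, where 73% of all genes were called and 44.3% were called lower, with Mafg at -1.97, Nfe2l2 at -1.44, Mafk at -1.37 and Nfe2l1 at -1.21. Of 6 assembly genes 3 were higher and 0 lower in LuRKO testes at day 27, namely Ecpas (1.12), Psmg3 (0.71) and Psmg1 (0.45), and 3 were lower in wild-type testes at day 27 than at day 3, Psmg3 (-0.99), Ecpas (-0.87) and Pomp (-0.83). Of 8 factors that bind the proteasome 5 were higher and 0 lower in LuRKO testes at day 27, led by the deubiquitinase Usp14 (1.58), which differed by -1.11 over the wild-type course. Of 8 genes listed for ubiquitin and activating (E1) enzymes only 2 were tested, and Uba1 was not among them. These were Uba6 (1.69) and Uba7 (0.62), both higher in LuRKO testes at day 27.

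Of 10 genes of antigen processing and interferon, the pathway served by immune subunits, 3 were higher and 0 lower at 24 h after 2.5 mg against vehicle, where 4.81% of all genes were called. These were Tap1, a peptide transporter (0.84), Irf1, an interferon-responsive factor (0.64), and Nlrc5, an activator of class I genes (0.61). At 48 h against vehicle, where 21% of all genes were called, 0 were higher and 4 lower, with B2m at -0.93, H2-D1 at -0.72 and H2-K1 at -0.70. In LuRKO testes at day 27, where 54.9% of all genes were called, 2 were higher, Irf1 (1.13) and H2-K1 (0.80), and 1 was lower, Nlrc5 (-0.53).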

How the data were processed

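Testis RNA was read on 38 Illumina bead arrays. Per the labels' protocols TRI reagent and RNeasy columns were used for extraction and the RNA was amplified to biotin-labelled cRNA, and the arrays were read with BeadStudio per the submitters' processing notes (version: not given in the sources used here). Deposited values are probe intensities on a linear scale, which the authors had already normalized by quantiles (array medians 108.1 to 108.3). That normalization fixes each array's distribution, so a shift common to all genes is not measured. The non-normalized table stayed unused, since 76 of its columns match no label. The planned test had assumed those signals with detection p-values, so the intensity threshold takes the place of the detection rule.

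From the deposited intensities, background was corrected with normexp (offset 50) and log2 was taken, in limma 3.58.1 under R 4.3.3. The threshold of 102 is 6.62 on that scale. Of 45281 probes 34885 had 1 gene symbol, 18 several and 10378 none listed. Probes above the threshold on 2 or more arrays were kept (31886, of which 25851 had 1 symbol), and the brightest stood for its gene, giving 15201 genes, 6674 of them with more than 1 kept probe. Among members 22 had more than 1 kept probe, 27 others in all. Of 151 called differences with another probe 15 had the opposite sign there, and 2 of these were called on it, Psma5 at 2 h (-0.62) and 4 h (-0.63).

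Labels gave the groups. All 38 arrays entered 1 limma fit (lmFit, eBayes) with a coefficient for each group, 18 residual degrees of freedom and 10.4 prior ones, and a group of 1 array takes its spread from that fit. Nothing says that replicate arrays came from separate litters, so p-values measure the spread between arrays. Members, lists and motifs were chosen with earlier results of these data known. The named genes are the members by class, with single arrays given for 10 members and for up to 5 called members with the largest difference per comparison, and up to 4 called genes for each pathway list. The fitting procedure was tested on simulated data. Replicate letters did not pair the arrays: over 153 pairs of groups the correlation of deviations lay between -0.26 and 0.25, with a median of 0.01. Other settings were no further background correction, scaling to 1 median, a filter on every array, averaging of probes, the replicate letter as a block, arrays of the same series alone and leaving out each array. Day 8 in place of day 3, vehicle as control, leaving out 3 arrays and 3 further comparisons were added after the data were seen.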

Additional observations from a re-analysis of the deposited data

Results flagged for a closer look

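The change from day 3 to day 27 differed between LuRKO (1 array at day 27) and wild-type testes for 21 members by the difference of differences in limma. The largest was Psmc6 (3.59), which rose by 2.08 in LuRKO and fell by 1.51 in wild-type testes, followed by Psmd14 (1.92) and Psmd6 (1.80). The LuRKO day 3 arrays of Psmc6 and Psmd14 lay within the range of the injected arrays or next to it, below all other uninjected LuRKO arrays. Of the core, the differences were 1.05 for Psma4, 0.95 for Psma2, 0.93 for Psma8, 0.89 for Psma7, 0.83 for Psmb3, 0.81 for Psmb4, 0.62 for Psmb1 and 0.61 for Psmb2. Of the regulatory particle, they were 0.84 for Psmc1, 0.76 for Psmd7, 0.68 for Psmd11, 0.57 for Psmd1, -0.46 for Psmc2 and -1.09 for Psmc3. Among activators they were 1.09 for Psme3, 0.83 for Psme2, 0.67 for Psme1 and -0.98 for Psme4, and the second probe of Psme1 gave -0.10 (limma adjusted p = 0.70). Counted from day 8, an alternative added after the data were seen, 18 of the 21 were still called. Psme2 (0.55), Psmd7 (0.45) and Psmd11 (0.47) were not, and Psmc6 was at 1.65, Psmd14 at 0.96 and Psmd6 at 1.42. No group has the 4 arrays needed to test for an outlying array.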

How the results depend on the processing

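Of 250 called member differences, 250 kept sign and call without further background correction and 250 with probes required above the threshold on every array. After scaling to 1 median 242 did and 8 lost the call, and with the mean of a gene's probes 224 did, 20 lost it and 6 changed sign. Using only arrays of the same series kept 203 of 236 and lost 33, in fits with fewer arrays, and vehicle and 48 h against vehicle have no such fit. Leaving out 1 array lost 217 of 916 calls and changed no sign. After scaling, the members' median was 0.39 for LuRKO against wild type at day 27, -0.30 for wild-type day 27 against day 3 and 0.52 for the difference of differences.

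The replicate block lost 4 of 250 calls and changed no sign. It moved 4 counts: 7 members in place of 5 at 2.5 mg against vehicle, 24 in place of 22 from day 13 to day 19 and 18 in place of 17 from day 19 to day 27 in wild type, and 18 in place of 20 from day 3 to day 27 in LuRKO testes. The letters pair no samples (23 of 153 correlations were over 0.1).

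With the mean of probes, 6 members were called between genotypes at day 3 in place of 3, 11 at 12 h in place of 6, and 0 at 2.5 µg and at 25 µg in place of 1 each. Reversed values were 0.48 for Psma5 (LuRKO day 27 against day 3), 0.0923 for Psmc2 (difference of differences), -0.16 and -0.14 for Psma5 at 2 and 4 h, -0.37 for Psmd12 at 2 h and -0.0165 for Psma8 at 2.5 mg against vehicle. With arrays of the same series, 4 were called from day 3 to day 8 in wild type in place of 2, 6 at 8 h in place of 11, 5 at 48 h in place of 8, 0 at 2.5 µg and 25 µg, and 1 at 2.5 mg against vehicle in place of 5. With the 3 arrays that stand apart left out, the counts were 1 from day 3 to day 8 in wild type, 0 at 2.5 µg and 25 µg, 3 at 2.5 mg against vehicle and 3 from day 8 to day 13 in LuRKO testes in place of 7. With vehicle in place of untreated testes, 2, 2, 2 and 0 members were called at 2, 4, 8 and 12 h, in place of 11, 12, 11 and 6. Reversed there were Psmb8 at 2, 4 and 8 h (-0.0381, -7.5e-04 and -0.12), Psmb9 at 8 h (-0.0234) and Psme2 at 4, 8 and 12 h (-0.0269, -0.11 and -0.11). The cause was not tested in any of these.

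Leaving out 1 array at a time gave 2 to 3 called members between genotypes at day 3, 0 to 0 at day 8, 0 to 0 at day 13, 3 to 7 at day 19 and 21 to 24 at day 27. Wild-type steps gave 1 to 5 (day 3 to 8), 2 to 4 (day 8 to 13), 17 to 22 (day 13 to 19), 14 to 17 (day 19 to 27) and 23 to 27 (day 3 to 27). LuRKO testes gave 3 to 7 (day 8 to 13), 11 to 13 (day 13 to 19) and 15 to 16 (day 3 to 27), and the difference of differences 20 to 22. After 2.5 mg the counts were 5 to 11 (2 h), 6 to 12 (4 h), 5 to 7 (8 h), 3 to 6 (12 h), 7 to 12 (24 h) and 4 to 7 (48 h). Against vehicle the counts were 0 to 0 at 250 ng, 0 to 1 at 2.5 µg, 0 to 0 at 25 µg, 2 to 4 at 2.5 mg and 1 to 6 at 48 h, and vehicle against untreated gave 2 to 8. Where a group was left with 1 array, it was assumed to vary like the others.

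A filter on every array moved the share of all called genes that were higher to 74.5% at day 27 between genotypes (62.1% otherwise), 72.9% for the difference of differences (60.4%), 63.3% at day 19 (51.7%), 16.7% from day 19 to day 27 in wild type (29.7%), 66.7% at 250 ng (55.6%) and 38.1% at 48 h against vehicle (50.5%). Signal over background limits Psmb8, Psmb9 and Psmb11, which lie close to the threshold, with Psmb9 as low as 6.96. It also limits Psmc6 on injected arrays, at 6.93 to 7.81.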
